A study of Mus musculus with 33 samples.

Results

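A panel of 40 genes of motile cilia and of the ependymal cells that carry them was followed through 33 mouse brain RNA libraries. The members were found by gene symbol, and each of the 40 symbols occurred exactly once among the 38393 features of each deposited table. The tables hold raw read counts per gene of polyadenylated RNA from 1-month-old male C57Bl/6J mice. Each of 3 mutants was set against wild type of its own experiment. CyrMut mice carry an altered site for the microRNA miR-7 in Cyrano, a long noncoding RNA. CyrKO mice lack Cyrano, and Mir7DKO mice lack both Mir7a1 and Mir7b, which encode miR-7. Experiment 1A held 4 CyrMut and 3 wild-type cerebella. Experiment 1B held 4 CyrKO and 4 Mir7DKO cerebella, which share 1 set of 4 wild-type cerebella. Experiment 2 held 3 Mir7DKO and 4 wild-type cerebella, and 3 Mir7DKO and 4 wild-type cortices. The genotype of the Mir7DKO mice does not name a further miR-7 gene, Mir7-2. The labels give neither the cell types of a tissue piece nor whether the piece held ventricle wall or choroid plexus.

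Motile cilia are whip-like cell projections built on a ring of microtubule doublets, the axoneme. Dynein motors bound to the doublets as outer and inner arms slide them past each other, and radial spokes, a central pair of microtubules and the nexin-dynein regulatory complex turn the sliding into a beat. In the brain, ependymal cells line the ventricles with tufts of such cilia, which move cerebrospinal fluid, and the epithelium of the choroid plexus, which makes that fluid, is ciliated as well. Foxj1, a forkhead transcription factor, switches on motile ciliogenesis, and factors of the RFX family bind ciliary gene promoters at a sequence called the X-box.

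The promoters were searched for letters of the X-box. The core GTTGCC, only part of the full X-box, searched on both strands in the 250 bases before and the 50 bases after a transcription start, occurred in 17 of the 34 members with a promoter in the RefSeq table, or 50%, against 14.1% of 27025 genes. A total of 7 members, or 20.6%, held it at least 2 times, against 1.2% of all genes. The forkhead letters TGTTTAC occurred in 2 members, Ak7 and Mlf1, or 5.9%, against 4.1%. A match describes the letters only and was not tested as a binding site. The 6 stretches below run from 120 bases before to 50 bases after the start on the gene's own strand (RefSeq, GRCm38.p6), are those of the members with 2 matches inside that stretch, and carry the matches in capitals, as GTTGCC or as its reverse complement GGCAAC.
Tekt1, chr11:72361833-72362002, minus strand: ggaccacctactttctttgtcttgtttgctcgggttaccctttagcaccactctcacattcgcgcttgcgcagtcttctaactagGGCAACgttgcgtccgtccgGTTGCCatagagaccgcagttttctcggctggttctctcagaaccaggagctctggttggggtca
Tekt2, chr4:126325639-126325808, minus strand: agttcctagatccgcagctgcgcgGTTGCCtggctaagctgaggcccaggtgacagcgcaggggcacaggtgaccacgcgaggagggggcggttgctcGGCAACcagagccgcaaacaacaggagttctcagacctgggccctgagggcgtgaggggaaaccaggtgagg
Spag16, chr1:69826850-69827019, plus strand: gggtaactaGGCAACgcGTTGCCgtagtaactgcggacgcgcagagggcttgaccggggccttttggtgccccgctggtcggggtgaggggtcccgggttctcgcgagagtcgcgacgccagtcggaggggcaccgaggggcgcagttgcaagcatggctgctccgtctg
Iqcg, chr16:33056137-33056306, minus strand: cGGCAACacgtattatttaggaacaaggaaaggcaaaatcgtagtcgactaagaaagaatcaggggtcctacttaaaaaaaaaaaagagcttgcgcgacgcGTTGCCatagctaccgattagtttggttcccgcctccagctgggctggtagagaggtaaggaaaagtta
Fam183b, chr11:58801911-58802080, minus strand: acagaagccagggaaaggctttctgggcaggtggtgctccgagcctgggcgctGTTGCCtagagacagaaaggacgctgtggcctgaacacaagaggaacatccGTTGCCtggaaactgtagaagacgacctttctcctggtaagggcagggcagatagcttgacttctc
Mns1, chr9:72438409-72438578, plus strand: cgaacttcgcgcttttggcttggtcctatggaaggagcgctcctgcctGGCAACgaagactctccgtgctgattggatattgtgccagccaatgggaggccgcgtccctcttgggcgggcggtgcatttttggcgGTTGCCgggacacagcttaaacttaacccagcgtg

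The other sequences that bear on the design are those of miR-7, the microRNA encoded by the genes lost in Mir7DKO. Mir7-2, which that genotype does not name, encodes the same mature miR-7a. The microRNA represses messenger RNAs through short matches to its seed, bases 2 to 8, given in capitals (RefSeq). Both mature forms share that seed.
mmu-miR-7a-5p: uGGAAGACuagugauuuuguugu
mmu-miR-7b-5p: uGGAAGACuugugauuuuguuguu
A match to bases 2 to 8 (GTCTTCC), or to bases 2 to 7 followed by an A (TCTTCCA), occurred in the 3′ UTR of 10 of the 40 members, or 25.0%, the share among 20494 genes with an annotated 3′ UTR also being 25.0% (GENCODE M21, GRCm38). The members were Dnah6, Rsph4a, Rsph9, Rfx2, Rfx3, Lrrc23, Iqcg, Iqca, Zmynd10 and Mns1. The 8-base match that joins both forms, in capitals, occurred in Rfx2, which held it 2 times, and in Iqcg and Mns1.
Rfx2, first match: ttccctgggcGTCTTCCAcgtgcttccg
Rfx2, second match: agcccctgcaGTCTTCCAgacacctccc
Iqcg: agccagcttaGTCTTCCAtgataggtct
Mns1: gtctggctttGTCTTCCAacatcctccc

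The libraries held 6.89 to 24.94 M counts. Cyrano was at 74.7 to 88.8 CPM (the read count per gene scaled to library size by TMM) in the 4 CyrKO libraries, against 1569 to 1971 CPM in wild type of that experiment, so no CyrKO library went against its label. It was at 1922 to 1997 CPM in CyrMut, against 1555 to 1871 CPM in its wild type. CyrMut carries a changed site and polyadenylated counts do not measure mature miR-7, so the CyrMut and Mir7DKO genotypes were not checked by these counts. The libraries did differ in choroid plexus RNA. The summed level of 16 choroid plexus markers ran from 179 to 2558 CPM, and in 11 of the 33 libraries it was more than 2 times that of the lowest library of the same tissue and experiment. These were CyrMut replicates 1, 3 and 4 (1733 to 2558 CPM) and wild-type replicate 1 (873 CPM) of experiment 1A, CyrKO replicate 1, Mir7DKO replicate 4 and wild-type replicate 2 of experiment 1B (483 to 910 CPM), Mir7DKO cerebellum replicates 1 and 2 (1498 and 1106 CPM), and wild-type cortex replicates 3 and 4 (845 and 987 CPM) of experiment 2. The choroid plexus transport protein gene transthyretin (Ttr) was at 110.0 to 966 CPM in those 11 and at 0.356 to 49.7 CPM in the other 22, and 0 to 3 of the 16 markers, among them Folr1, Kcne2 and Tmem72, were at 0 in a library. In whole tissue, more cells of a type and more RNA per cell cannot be told apart.

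Most members were scarce in these tissues. Per kilobase of annotated exon, Rfx3, a ciliary RFX factor that other brain cells express too, stood highest in wild-type cerebellum of experiment 2 at 4.51 ± 0.188 RPKM (SD, n = 4). The ruler protein gene Ccdc39 followed at 2.39 ± 0.176 RPKM, the outer arm heavy chain gene Dnah11 at 2.03 ± 0.136 RPKM, the radial spoke gene Lrrc23 at 1.97 ± 0.286 RPKM and Foxj1 at 1.80 ± 0.443 RPKM. Rfx3 stood apart from the rest, whereas Dnah11, Lrrc23 and Foxj1 did not differ beyond their spread. The lowest level was that of Tekt4, a tektin of the doublet wall, at 0.0687 ± 0.0466 RPKM. In wild-type cortex Rfx3 was again highest at 8.61 ± 0.985 RPKM, followed by Ccdc39 at 4.42 ± 0.617 RPKM, the spoke head gene Rsph9 at 3.26 ± 0.562 RPKM, Foxj1 at 2.31 ± 0.667 RPKM and Rsph1, another spoke head gene, at 2.23 ± 0.412 RPKM. Tekt4 and Tmem212, a membrane protein gene, passed the low-count filter in no mutant comparison, with 0 to 14 and 0 to 15 reads a library, nor did Fam183b, a ciliated-cell gene, at 1 to 14 reads. Reads were also few for the tektin gene Tekt1 (4 to 33 a library), the regulatory complex gene Iqca (0 to 18), Mlf1 (0 to 17) and the docking gene Armc4 (3 to 30).

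The tissue comparison set wild-type cerebellum against wild-type cortex in experiment 2, and the members split. Of the 40, 29 passed the filter. Of those, 5 were higher in cerebellum, a call made for 37.3% of all 14001 genes tested, and 15 were lower, a call made for 37.4% (edgeR quasi-likelihood test, Benjamini-Hochberg adjusted p at most 0.05). With no filter, 10 of 40 members had a positive log2 change and their median was -0.81, beside -0.034 over all features. The choroid plexus sum was 226 to 273 CPM in cerebellum against 281 to 987 CPM in cortex. Of 9 choroid plexus markers tested, 1 was called higher in cerebellum and 6 lower. Without the cortex libraries high in those markers, 5 of 31 members were higher and 14 lower, beside 4848 and 4905 of 14530 genes. The median of the members tested was then -0.67, beside -0.69 with all libraries. The direction followed no single part of the axoneme, since outer arm heavy chain genes went both ways.

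Among the outer arm genes, the beta-type heavy chain gene Dnah11 had 31.6, 27.3, 30.4 and 28.4 CPM in the 4 wild-type cerebella, against 1.72, 2.24, 2.45 and 1.66 CPM in the 4 wild-type cortices. It was higher in every cerebellum, with a log2 change of 3.85 (SE 0.134, adjusted p = 1.1e-17). Efcab1, which encodes the arm-associated calcium sensor calaxin, went the other way, with 0.300, 0.662, 0.398 and 0.246 CPM in cerebellum against 7.96, 8.26, 11.1 and 8.02 CPM in cortex. Its log2 change was -4.43 (SE 0.263, adjusted p = 3.31e-13), the largest in size among the members. Efcab1 had 3, 7, 5 and 3 reads in cerebellum against 60, 59, 77 and 58 in cortex. It passed the low-count filter through cortex, where it was high. The heavy chain genes Dnah9 (-2.42, SE 0.221) and Dnah5 (-1.89, SE 0.194) and the intermediate chain gene Dnaic1 (-1.05, SE 0.248) were also lower in cerebellum, whereas the second intermediate chain gene, Dnaic2, was higher (1.13, SE 0.246). Dnah9 too passed the filter only through cortex, and Dnaic2 only through cerebellum, in each case the tissue where the gene was high. About 4.4% of the exon bases of Dnah11 overlap Cdca7l on the other strand.

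Inner arm, spoke and central pair genes split in the same way. The inner arm heavy chain gene Dnah6 had 18.1, 20.1, 17.8 and 19.7 CPM in wild-type cerebella against 4.25, 2.38, 4.32 and 4.56 CPM in wild-type cortices, a log2 change of 2.27 (SE 0.141, adjusted p = 8.29e-13). Hydin, a central pair gene whose loss causes hydrocephalus in mice, had 11.9, 13.5, 12.03 and 10.8 CPM in cerebellum against 2.52, 3.08, 2.73 and 2.63 CPM in cortex (log2 change 2.12, SE 0.154, adjusted p = 1.46e-11). Neither gene's groups overlapped. Gm872, named Cfap54 in current annotation and also a central pair gene, was lower, with 1.60, 1.70, 1.91 and 0.574 CPM in cerebellum against 11.8, 10.8, 14.4 and 13.3 CPM in cortex (log2 change -3.12, SE 0.212, adjusted p = 4.33e-12). All 3 spoke head genes were lower in cerebellum, Rsph4a by the most (-1.81, SE 0.322), whereas the spoke gene Lrrc23 was higher (0.61, SE 0.223, adjusted p = 0.0179). The inner arm heavy chain gene Dnah12 (-0.99) and the arm assembly factor gene Zmynd10 (-1.54) were lower. Zmynd10 had 5, 9, 9 and 8 reads in cerebellum against 18, 16, 12 and 12 in cortex. It passed the filter only through cortex, where it was high, as did Dnah12, Gm872, Rsph1 and Rsph4a.

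Of the remaining members, Ccdc113, an axonemal coiled-coil protein gene, had 0.200, 0.284, 0.239 and 0.246 CPM in wild-type cerebella against 2.26, 2.38, 2.59 and 2.21 CPM in wild-type cortices (log2 change -3.22, SE 0.339, adjusted p = 1.1e-08). It had 2, 3, 3 and 3 reads in cerebellum against 17, 17, 18 and 16 in cortex, and it too passed the filter through cortex. The microtubule-inner protein gene Enkur (-1.36), the ruler gene Ccdc39 (-0.89), the regulatory complex gene Iqcg (-0.61) and Rfx3 (-0.94) were lower as well. Enkur also passed the filter only through cortex. About 48.1% of the exon bases of Iqcg overlap Lrch3 on the other strand, and 16.9% of those of Ccdc39 overlap Ttc14. The levels of Iqcg and Ccdc39 are uncertain to that extent, because the strand setting of the counting was not given. Foxj1 itself had 3.90, 6.43, 4.46 and 4.10 CPM in cerebellum against 4.78, 5.18, 8.63 and 5.67 CPM in cortex, groups that overlapped, and did not pass (log2 change -0.37, SE 0.202, adjusted p = 0.106). It passed when wild-type cerebellum replicate 2 (-0.53, adjusted p = 0.0242) or wild-type cortex replicate 1 (-0.47, adjusted p = 0.0478) was left out. Over all fits without 1 library its change ran from -0.53 to -0.15, with adjusted p up to 0.516. Over all settings tried it shrank to as little as -0.085, with adjusted p up to 0.77.

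**Figure D1:**
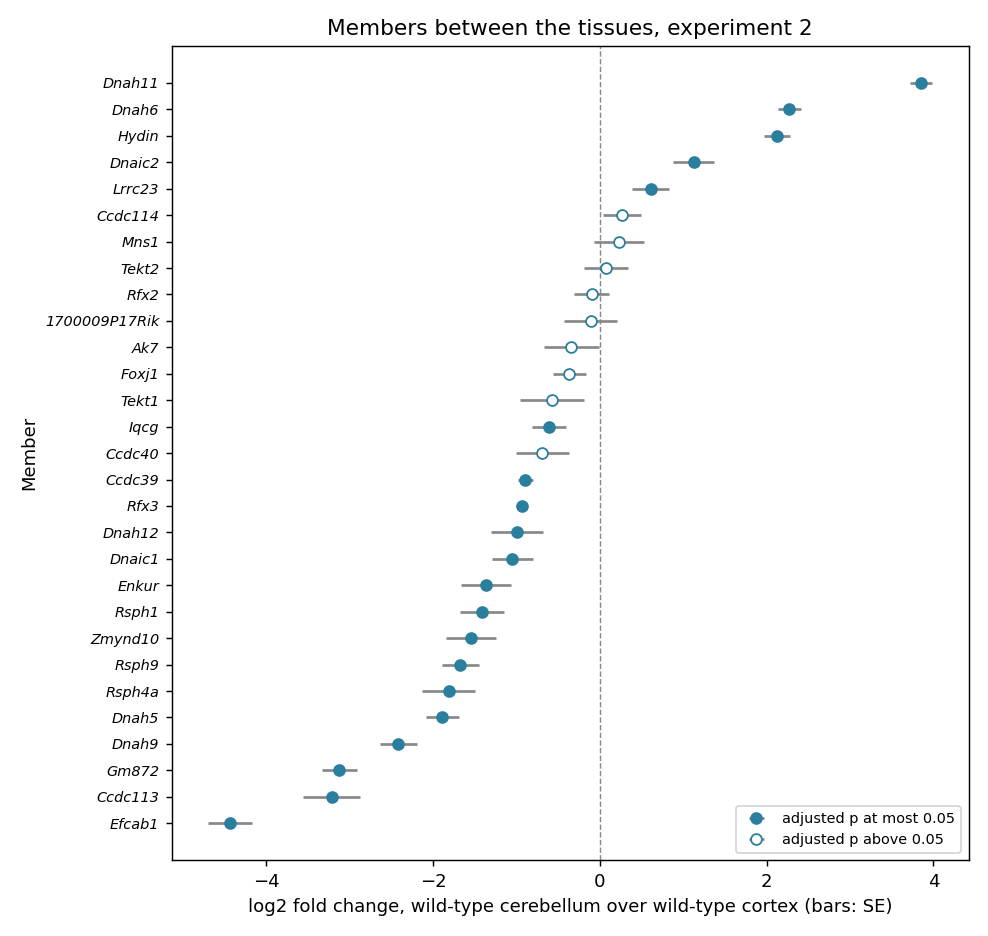
The 29 members that passed the filter, by log2 fold change of wild-type cerebellum over wild-type cortex in experiment 2 (x axis; bars, SE; 4 libraries a group), with filled points for an adjusted p of at most 0.05. Dnah11, Dnah6 and Hydin lie at 3.85, 2.27 and 2.12, and Efcab1, Ccdc113 and Gm872 at -4.43, -3.22 and -3.12. The filter is part of this selection. Among the called members, Efcab1, Ccdc113, Zmynd10, Enkur, Dnah12, Dnah9, Rsph1, Rsph4a and Gm872 passed it only through cortex, where they were high. Dnaic2 passed it only through cerebellum, where it was high.

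The Mir7DKO libraries of experiment 2 repeat the tissue comparison in other mice. Of 33 members that passed the filter, 10 were higher in Mir7DKO cerebellum than in Mir7DKO cortex and 13 lower, each direction being called for 34.1% of 14431 genes. With no filter, 19 of 40 members had a positive log2 change, against 10 of 40 in wild type. Their median was -0.0508, beside -0.0506 over all features, so the lower median of wild type, -0.81, was not repeated. A total of 18 members passed in both genotypes, all 18 in the same direction, which is 18 of the 20 called in wild type and 18 of the 23 called in Mir7DKO. Over all genes 9036 of the 9049 called in both genotypes had the same direction, which is 86.4% of the genes called in wild type and 91.9% of those called in Mir7DKO. Dnah11 (36.6 ± 3.69 CPM in Mir7DKO cerebellum and 0.976 ± 0.436 CPM in Mir7DKO cortex, SD, n = 3 each) and Efcab1 (1.58 ± 0.727 and 7.396 ± 0.349 CPM) had the highest and the lowest log2 change, 5.14 (SE 0.186) and -2.23 (SE 0.244). Ccdc135, which encodes a subunit of the nexin-dynein regulatory complex and is named Drc7 in current annotation, passed here at 1.87 (SE 0.45, adjusted p = 9.64e-04). Without the libraries high in choroid plexus markers, which leaves Mir7DKO cerebellum replicate 3 alone, its change was 0.45 (adjusted p = 0.476), and 6 members were higher and 12 lower. Ak7, an adenylate kinase gene of the cilium, had a log2 change of 0.90 (SE 0.287, adjusted p = 0.00891) between the Mir7DKO tissues. Of 9 choroid plexus markers tested between these tissues, 8 were higher in cerebellum and 0 lower, with a median of 2.25.

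In CyrMut, where only the miR-7 site of Cyrano is altered, nearly all ciliary members had positive log2 changes, yet no single member passed over all genes. Of 40 members 37 passed the filter and 0 were called, where 0.00673% of 14866 genes were called. A total of 18 members had an unadjusted p under 0.05, beside 4.98% of all genes, and DESeq2 called 0 as well. With the choroid plexus sum as a covariate 6 had such a p, and 5 without the libraries high in choroid plexus markers. With no filter 39 of 40 members had a positive log2 change, with a median of 0.55 beside -0.0013 over all features. In 13 members every CyrMut library lay above every wild-type library, which held for 2.66% of all genes. In 0 every CyrMut library lay below, which held for 2.73%. Of these 13, Dnah12, Dnali1, Spata18 and Mlf1 passed the low-count filter through CyrMut, the group where they were high.

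Foxj1 had 8.05, 5.78, 7.46 and 6.84 CPM in the 4 CyrMut cerebella, against 4.62, 4.63 and 4.89 CPM in the 3 wild-type cerebella. The groups did not overlap, and its log2 change was 0.59 (SE 0.136, adjusted p = 0.944). It was 0.43 with the choroid plexus covariate and 0.29 without the libraries high in choroid plexus markers. The smallest p-value belonged to Dnali1, the inner arm light intermediate chain gene, with 1.502, 1.41, 1.65 and 1.43 CPM in CyrMut against 0.572, 0.475 and 0.473 CPM in wild type. Its libraries were close within each group and apart between them (log2 change 1.55, SE 0.238, adjusted p = 0.218). Dnali1 had 25, 19, 36 and 23 reads in CyrMut against 13, 12 and 6 in wild type. It passed the low-count filter through the group where it was high. Spata18, a gene for mitochondrial quality control, had 1.74, 1.04, 1.65 and 1.68 CPM in CyrMut against 0.528, 0.158 and 0.552 CPM in wild type (log2 change 1.99, SE 0.375, adjusted p = 0.704). It had 29, 14, 36 and 27 reads against 12, 4 and 7, and it too passed the filter through CyrMut. The gene 1700009P17Rik, named Cfap126 in current annotation and needed to position basal bodies, had 2.58, 2.0, 2.74 and 2.49 CPM in CyrMut against 1.37, 0.633 and 1.02 CPM in wild type (log2 change 1.31, SE 0.263, adjusted p = 0.704). In both genes CyrMut replicate 2 was the lowest CyrMut library and still lay above every wild-type library.

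By role, all 8 outer arm and docking genes had positive log2 changes, from 0.05 to 1.67 with a median of 0.30. The 8 spoke and central pair genes lay between 0.14 and 1.27 with a median of 0.83, and the 7 tested tektins and other axonemal genes between 0.37 and 1.31 with a median of 0.71. The 3 transcription factor genes had 0.59 for Foxj1, 0.13 for Rfx2 and 0.10 for Rfx3. Zmynd10 alone had a negative value, -0.18. The 5 members with the highest CPM had small values, 0.10 for Rfx3, 0.11 for Dnah11, 0.29 for Dnah6, 0.12 for Ccdc39 and 0.23 for Hydin. Tekt2, a tektin gene whose promoter is shown above, averaged 1.77 ± 0.259 CPM in CyrMut (SD, n = 4) and 1.21 ± 0.0279 CPM in wild type (SD, n = 3), a log2 change of 0.55 (SE 0.207). About 20.8% of its exon bases overlap Gm12945 on the other strand. Spag16, a central pair gene, averaged 2.27 ± 0.574 CPM in CyrMut and 1.14 ± 0.424 CPM in wild type (1.03, SE 0.303). Ccdc40, the partner of Ccdc39 in the ruler, had 1.33 to 1.62 CPM in CyrMut against 0.713 to 1.67 CPM in wild type, and Spag17, a central pair gene, 0.549 to 1.20 CPM in CyrMut against 0.238 to 0.709 CPM in wild type.

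The choroid plexus markers moved with this comparison. All 16 had positive log2 changes, with a median of 2.09 and 0 called, and their summed level ran from 261 to 2558 CPM in CyrMut, against 211 to 873 CPM in wild type. Ccdc135 was high where the choroid plexus sum was high, with 5.29, 1.19, 8.28 and 5.97 CPM in CyrMut against 2.64, 0.633 and 0.788 CPM in wild type. CyrMut replicate 2 and wild-type replicates 2 and 3 were low in both measures (log2 change of Ccdc135 1.92, SE 0.57, adjusted p = 0.944). That change was 0.29 with the choroid plexus covariate, 0.77 without the libraries high in choroid plexus markers and 2.94 without wild-type replicate 1. With the choroid plexus sum as a covariate 32 of the 37 members were positive, 31 of them among the 36 positive without it, and the median was 0.30, beside 0.59 without it. The median was 0.295 without wild-type replicate 2, and 0.471 to 0.668 without any other single library. When CyrMut replicate 2 was set against wild-type replicates 2 and 3 alone, in a fit that assumes that the lone library varies like the others, 30 of 35 members were positive. Their median was 0.49, beside -0.0049 over all genes. That fit sets 1 library against 2, and wild-type replicate 2 held the lowest level of 22 of the 37 members tested. Without the low-count filter 7 members passed, namely Ccdc135, Dnali1, Efcab1, Gm872, Rsph4a, Spata18 and 1700009P17Rik.

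**Figure D2:**
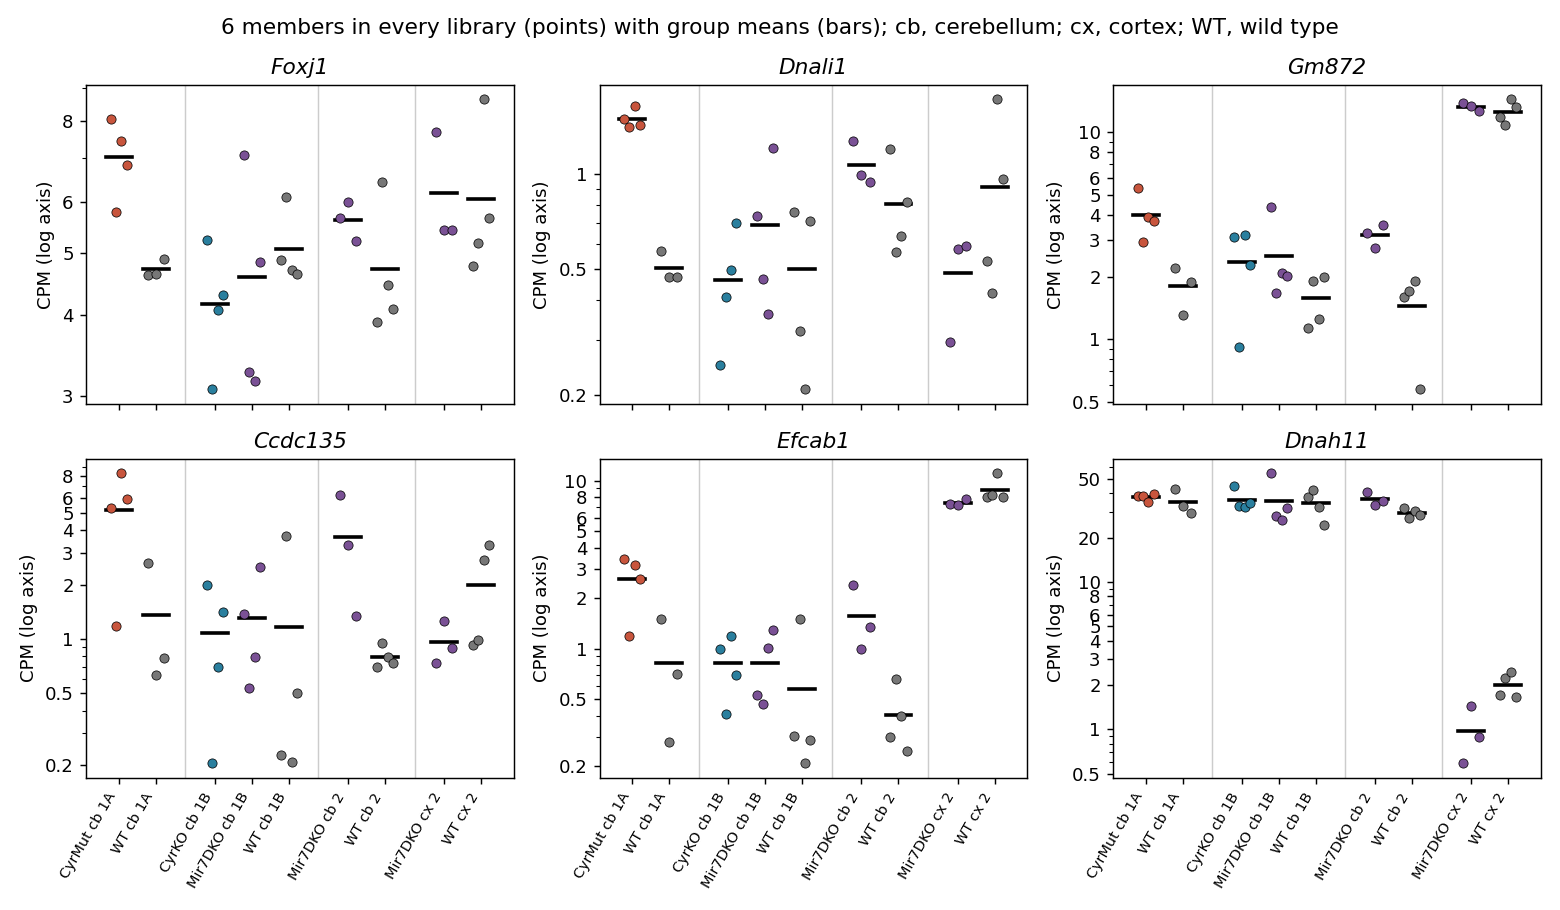
Levels of 6 members in each library (points, CPM on a log axis) with the group mean (bars), by genotype, tissue and experiment. Dnali1 lies between 1.41 and 1.65 CPM in the 4 CyrMut cerebella, above all 3 wild-type cerebella of experiment 1A, and Dnah11 and Efcab1 differ between the tissues in opposite directions.

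In CyrKO, where the Cyrano transcript itself is lost, the ciliary members showed no shared direction. Of 40 members 25 passed the filter and 0 were called by edgeR or DESeq2, where edgeR called 0.0220% of 13664 genes. Only Mns1 had an unadjusted p under 0.05, beside 7.35% of all genes. With no filter 24 of 40 members were positive, with a median of 0.09 beside -0.0021 over all features. The median of the 25 was 0.08, and -0.02 without CyrKO replicate 1 and 0.225 without CyrKO replicate 2. No member had every CyrKO library above every wild-type library, which held for 2.28% of all genes. Mns1, a microtubule-inner protein gene, had every CyrKO library below, which held for 1.89%. Mns1 had 1.37, 1.54, 1.49 and 0.964 CPM in CyrKO against 1.60, 2.35, 1.57 and 2.21 CPM in wild type (log2 change -0.54, SE 0.25, adjusted p = 0.677). About 53.0% of its exon bases overlap Tex9 on the other strand, and its level is uncertain because the strand setting of the counting was not given in the sources used here. Foxj1 had 5.23, 3.07, 4.08 and 4.29 CPM in CyrKO against 4.86, 6.09, 4.70 and 4.63 CPM in wild type, groups that overlapped (log2 change -0.29, SE 0.175, adjusted p = 0.708). Gm872 had 3.11, 0.922, 3.19 and 2.28 CPM in CyrKO against 1.14, 1.92, 1.253 and 1.99 CPM in wild type (log2 change 0.56, SE 0.335, adjusted p = 0.708).

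Mir7DKO cerebellum in experiment 1B was set against the same 4 wild-type libraries, so the comparison is not independent of the CyrKO one. Of 40 members 29 passed the filter and 0 were called by edgeR or DESeq2, where edgeR called 0.00713% of 14031 genes, and 0 had an unadjusted p under 0.05, beside 3.68% of all genes. With no filter 28 of 40 were positive, with a median of 0.24 beside 0.00028 over all features. The median of the 29 was 0.09, and 0.041 without Mir7DKO replicate 1 and 0.233 without Mir7DKO replicate 2. No member's groups were free of overlap in either direction, which held for 1.32% of all genes with Mir7DKO higher and 1.22% with Mir7DKO lower. Foxj1 had 7.08, 3.27, 3.17 and 4.83 CPM in Mir7DKO against 4.86, 6.09, 4.70 and 4.63 CPM in wild type, so that its highest and its lowest libraries were both Mir7DKO (log2 change -0.17, SE 0.239, adjusted p = 1.0). Gm872 had 4.33, 1.67, 2.09 and 2.01 CPM in Mir7DKO against 1.14, 1.92, 1.253 and 1.99 CPM in wild type (log2 change 0.62, SE 0.329, adjusted p = 1.0). Spata18 (0.98, SE 0.52) had 0.951, 0.400, 1.08 and 0.886 CPM in Mir7DKO against 0.152, 0.534, 0.104 and 0.784 CPM in wild type. Rfx2, an RFX factor of motile ciliogenesis, had 2.85, 3.14, 5.05 and 5.31 CPM in Mir7DKO against 2.28, 3.10, 2.61 and 4.06 CPM in wild type (0.44, SE 0.253). Both genes' groups overlapped.

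In experiment 2, Mir7DKO cerebellum gave the only member called against wild type in any mutant comparison. Of 40 members 33 passed the filter and 1, Ccdc135, rose, where 0.198% of 14146 genes were called. With no filter 36 of 40 members were positive, with a median of 0.32 beside 0.0037 over all features. In 9 members every Mir7DKO library lay above every wild-type library, which held for 3.51% of all genes, and in 0 every one lay below, which held for 3.15%. The 9 were Ak7, the docking gene Armc4, Ccdc135, Ccdc39, Dnah11, Dnah9, Efcab1, Gm872 and Rsph1. Ak7 averaged 2.93 ± 0.175 CPM in Mir7DKO (SD, n = 3) and 1.60 ± 0.828 CPM in wild type (SD, n = 4), so its log2 change was 0.87 (SE 0.299, adjusted p = 0.436). Foxj1 was not among the 9, with 5.67, 5.99 and 5.21 CPM in Mir7DKO against 3.90, 6.43, 4.46 and 4.10 CPM in wild type (log2 change 0.25, SE 0.181, adjusted p = 0.875).

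Ccdc135 (ENSMUSG00000031786, plus strand of chromosome 8 from 95055103 to 95078141, GRCm38) had 6.30, 3.30 and 1.34 CPM in the 3 Mir7DKO cerebella, against 0.701, 0.946, 0.797 and 0.738 CPM in the 4 wild-type cerebella. It had 79, 43 and 17 reads in Mir7DKO against 7, 10, 10 and 9 in wild type, so it passed the low-count filter through the group where it was high. The log2 change was 2.18 (SE 0.398, adjusted p = 0.0197), and in the authors' deposited table it is 2.19 with an adjusted p of 0.00298. Over the other settings tried the adjusted p ran from 5.35e-11 to 0.742. The 3 Mir7DKO libraries were far apart, and the order among them was that of the choroid plexus sum, at 1498, 1106 and 229 CPM against 226 to 273 CPM in wild type. With that sum as a covariate the change was 0.70 (adjusted p = 0.742), and without Mir7DKO replicates 1 and 2 it was 0.75 (adjusted p = 0.703), replicate 3 then standing alone. The call also ended when Mir7DKO replicate 1 (adjusted p = 0.123) or wild-type replicate 1 (0.112), 2 (0.0869) or 4 (0.082) was left out. Of 10 choroid plexus markers tested 5 rose, and the median of the 10 was 1.59.

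Efcab1 and Dnah9 came next. Efcab1 had 2.39, 0.997 and 1.34 CPM in Mir7DKO against 0.300, 0.662, 0.398 and 0.246 CPM in wild type (log2 change 1.95, SE 0.419, adjusted p = 0.0581), and Dnah9 had 3.27, 3.30 and 1.74 CPM against 1.501, 1.33, 0.717 and 1.31 CPM (log2 change 1.20, SE 0.298, adjusted p = 0.143). In both genes the lowest Mir7DKO library lay above the highest wild-type library. Efcab1 had 30, 13 and 17 reads in Mir7DKO against 3, 7, 5 and 3 in wild type, and it too passed the filter through the group where it was high. The change of Dnah9 was 0.60 (adjusted p = 0.757) with the choroid plexus covariate and 0.53 (adjusted p = 0.773) without the libraries high in choroid plexus markers. Efcab1 passed without Mir7DKO replicate 2 (2.20, adjusted p = 0.0282), and Dnah9 without replicate 3 (1.45, adjusted p = 0.0181). In Mir7DKO replicate 3, whose choroid plexus sum was within the wild-type range, Gm872 was at 3.55 CPM, above the 4 wild-type libraries at 0.574 to 1.91 CPM. Hydin had the lowest log2 change, with 7.10, 11.6 and 7.74 CPM in Mir7DKO against 11.9, 13.5, 12.03 and 10.8 CPM in wild type, groups that overlapped through Mir7DKO replicate 2 (-0.45, SE 0.148, adjusted p = 0.384). Without that replicate Hydin passed as lower in Mir7DKO (-0.70, SE 0.144, adjusted p = 0.0356). Spag16 had 0.98 (SE 0.38, adjusted p = 0.555). With no filter 7 members passed, namely Armc4, Ccdc135, Dnah11, Dnah9, Efcab1, Gm872 and Mlf1, and with a minimum count of 50 none of the 6 members tested did.

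**Figure D3:**
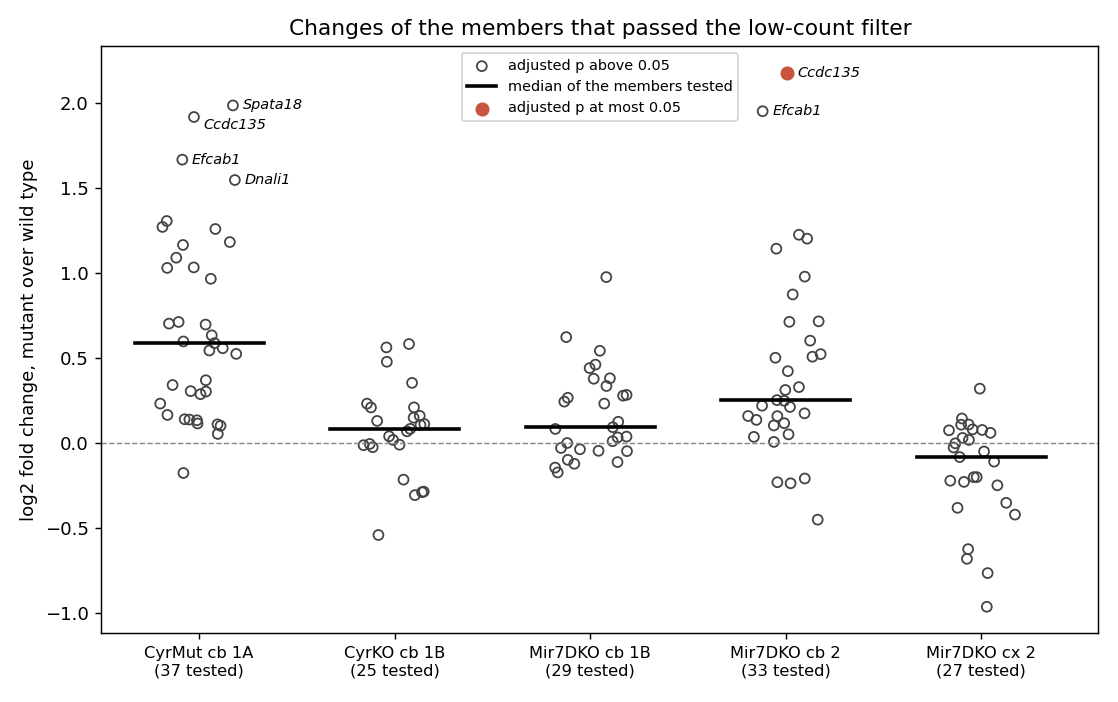
Log2 fold changes of the members that passed the low-count filter in each mutant comparison (points), with their median (bars) and the called member filled. The medians are 0.59 in CyrMut, 0.08 in CyrKO, 0.09 and 0.25 in Mir7DKO cerebellum of experiments 1B and 2, and -0.08 in Mir7DKO cortex. The filter is part of this selection, and the CyrKO and Mir7DKO values of experiment 1B share wild-type libraries.

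Mir7DKO cortex did not share the positive values. Of 40 members 27 passed the filter and 0 were called by edgeR or DESeq2, where edgeR called 0.0436% of 13754 genes. A total of 3 members had an unadjusted p under 0.05, beside 5.77% of all genes. With no filter 14 of 40 members were positive, with a median of -0.11 beside 0.0093 over all features. The docking gene Ccdc114 alone had every Mir7DKO library above every wild-type library, which held for 3.58% of all genes, and Dnah11, Efcab1 and Lrrc23 had every one below, which held for 3.27%. Ccdc114 averaged 2.905 ± 0.0473 CPM in Mir7DKO (SD, n = 3) and 2.32 ± 0.311 CPM in wild type (SD, n = 4), a difference of 0.32 on the log2 scale (SE 0.228). Dnah11 had 0.591, 1.45 and 0.888 CPM in Mir7DKO against 1.72, 2.24, 2.45 and 1.66 CPM in wild type (log2 change -0.96, SE 0.33, adjusted p = 0.831). Dnah6 had 2.36, 3.19 and 1.28 CPM in Mir7DKO against 4.25, 2.38, 4.32 and 4.56 CPM in wild type, groups that overlapped (-0.76, SE 0.29, adjusted p = 0.849). Lrrc23 had 1.63, 1.35 and 1.38 CPM in Mir7DKO against 1.72, 1.96, 2.59 and 2.63 CPM in wild type (-0.62, SE 0.279, adjusted p = 0.849). Foxj1 had 7.68, 5.41 and 5.43 CPM in Mir7DKO against 4.78, 5.18, 8.63 and 5.67 CPM in wild type (log2 change -0.0013, SE 0.202). The choroid plexus sum was 287 to 301 CPM in Mir7DKO against 281 to 987 CPM in wild type, and the 7 choroid plexus markers tested had a median of -1.21, with Ttr called lower.

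The difference between the Mir7DKO change in cerebellum and the Mir7DKO change in cortex was tested as an interaction. Of 36 members tested 2 passed, Efcab1 at 2.20 (SE 0.424, adjusted p = 0.023) and Ccdc135 at 3.17 (SE 0.673, adjusted p = 0.0458), where 0.155% of 14886 genes were called. With no filter 34 of 40 members had a positive difference, with a median of 0.63 beside -0.00095 over all features. Both calls depended on single libraries. Ccdc135 stayed past the threshold in 3 of the 14 fits that left out 1 library, with adjusted p from 0.00084 to 0.311, and Efcab1 in 5 of 14, with adjusted p from 0.0117 to 0.226. Ccdc135 was at 3.07 (adjusted p = 0.0696) with the replicate number as a block, and with the choroid plexus sum as a covariate the differences were 0.62 for Ccdc135 and 1.79 for Efcab1, neither of which passed. Of 15 choroid plexus markers tested 10 had a called positive difference, with a median of 5.53.

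A few libraries of each tissue and experiment held the highest level of many members. In experiment 1A, CyrMut replicates 1, 3 and 4 held the highest level of 11, 10 and 11 of the 37 members tested, whereas 13.5%, 10.5% and 16.2% of all genes tested were highest there. Wild-type replicate 2 held the lowest level of 22 members and of 12.4% of all genes. In experiment 1B, CyrKO replicate 1 and Mir7DKO replicate 1 were highest for 7 of 29 members each, beside 9.0% and 9.21% of all genes, and wild-type replicate 3 was lowest for 9, beside 7.75%. The choroid plexus sum of that Mir7DKO replicate 1 was 210 CPM, among the low libraries. In cerebellum of experiment 2, Mir7DKO replicates 1 and 2 were highest for 11 and 9 of 33 members, beside 19.8% and 12.2% of all genes, and in cortex wild-type replicates 3 and 4 for 6 and 7 of 27, beside 13.3% and 11.6%. Reads of 1 library share its dissection, depth and scaling, so these are counts of genes, not independent observations.

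Ccdc135 and the central pair gene Spag16 were the members whose level was higher in every library high in choroid plexus markers than in every other library, in all 4 sets of libraries. In experiment 1B Ccdc135 had 1.99 CPM in CyrKO replicate 1, 2.50 CPM in Mir7DKO replicate 4 and 3.74 CPM in wild-type replicate 2, against 0.205 to 1.402 CPM in the other 9 libraries. In wild-type cortex it had 2.73 and 3.32 CPM in replicates 3 and 4, against 0.739 to 1.26 CPM in the other 5 cortices. Spag16 met the order by narrow margins in 1A, where wild-type replicate 1 had 1.497 CPM and CyrMut replicate 2 had 1.482 CPM. In cortex, wild-type replicate 4 had 7 reads and wild-type replicate 2 had 6. In 1B, CyrKO replicates 1, 3 and 4 each had 12 reads. In cerebellum of experiment 2 the margin was wider, 1.77 CPM or more against 1.23 CPM or less. Among the 12991 genes tested in every mutant comparison, which leave out both members, the same order in all 4 sets occurred in 10, or 0.077%. Of these, 5 are on the choroid plexus list that set the order, and the other 5 were 1500015O10Rik, Abca4, Ace, Col8a2 and F5, which were chosen after their values were seen. Foxj1 did not follow that order. What share of the ciliary RNA came from choroid plexus epithelium was not tested.

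**Figure D4:**
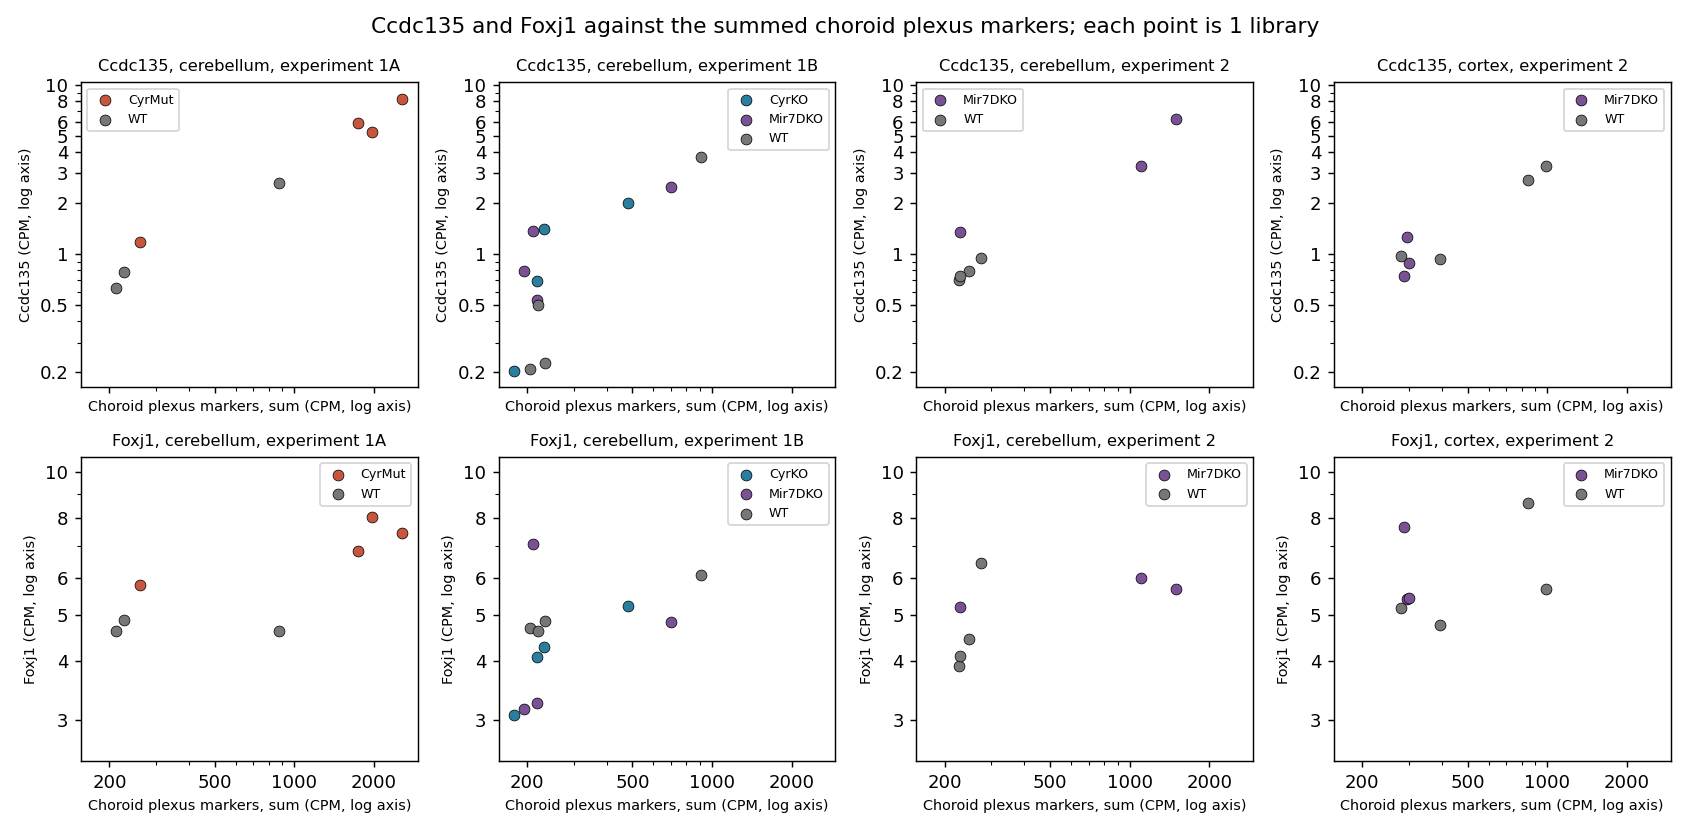
Level of Ccdc135 (upper row) and Foxj1 (lower row) against the summed level of 16 choroid plexus markers, both as CPM on log axes, 1 point a library, in the 4 sets of libraries. Ccdc135 lies highest in the libraries at 483 CPM or more in each set, up to 8.28 CPM in CyrMut replicate 3, whereas Foxj1 stays between 3.07 and 8.63 CPM with no such order.

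The members with a miR-7 match and those without one were set side by side in Mir7DKO, and the difference between them was not tested. In cerebellum of experiment 2 the 9 tested members with a match had a median log2 change of 0.10, from -0.24 to 0.72, and the 24 without one a median of 0.38. In experiment 1B the medians were 0.13 for 9 members with a match and 0.09 for 20 without. In cortex they were -0.23 and -0.01, with 9 and 18 members. Rfx2, which holds 2 of the 8-base matches shown above, had log2 changes of 0.44, 0.12 and -0.42 in Mir7DKO cerebellum of experiment 1B, cerebellum of experiment 2 and cortex, none past the test. Iqcg had 0.13, 0.16 and -0.11, and Mns1 -0.12, 0.10 and -0.38.

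Other ciliary genes were read from 2 further lists, and the medians over all genes tested lay between -0.0027 and 0.0036 in the mutant comparisons. With no filter, 67 of the 81 other motile cilia genes were positive in CyrMut with a median of 0.495, 51 in CyrKO with 0.0733, 57 and 59 in Mir7DKO cerebellum of experiments 1B and 2 with 0.102 and 0.30, and 28 in Mir7DKO cortex with -0.0711. Counts and medians of genes that passed the filter follow. Of 81 other motile cilia genes in the tables, 57 were tested in CyrMut, 0 were called, 47 had positive log2 changes and their median was 0.46. In Mir7DKO cerebellum of experiment 2, 0 of 46 were called, 32 were positive and the median was 0.18. In Mir7DKO cortex, 0 of 45 were called, 16 were positive and the median was -0.07, and in CyrKO, 0 of 37 were called with a median of 0.04. Between wild-type cerebellum and cortex 11 of 47 were higher in cerebellum and 26 lower, beside 37.3% and 37.4% of all genes tested, with Drc1, a regulatory complex gene, at -2.75 (SE 0.139). The second list, of intraflagellar transport and primary cilium genes, which serve the immotile cilium of most cells, had medians of 0.0030 in CyrMut, 0.04 in CyrKO, 0.02 and -0.0070 in Mir7DKO cerebellum of experiments 1B and 2, and 0.04 in cortex, with 0 of 33 genes called in each. Of the ependymal markers that are not parts of cilia, 5 were tested in each mutant comparison and 0 were called. In CyrMut 5 were positive with a median of 0.10, and in CyrKO 0 with -0.08. In Mir7DKO cerebellum 1 was positive in experiment 1B (-0.06) and 3 in experiment 2 (0.05). In Mir7DKO cortex, where most ciliary members were negative, 5 were positive with a median of 0.23. The summed level of that list was 180 to 201 CPM in CyrMut against 170 to 190 CPM in wild type.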

How the data were processed

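The authors deposited raw counts, 1 table for each mutant comparison. Per the submitters' processing notes the tools were DESeq2 1.10, STAR 2.4 and HTSeq 0.6.1p1, and mm10 and GRCm38 are the builds listed. The deposited tables also hold the authors' normalised signal per library, log2 fold changes with their standard errors, Wald scores, p-values and adjusted p-values, and a column of other values where 1 shifted record, that of Myo15, was put back in place. The libraries are stranded, per the labels' protocols. The strand setting, the handling of multiply mapped reads and the annotation release were not given in the sources used here.

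Samples were grouped by the labelled genotype, tissue and experiment, and the submitters describe biological replicates. No 2 replicates agreed within sampling noise (lowest chi-square per degree of freedom 1.68 over 45 pairs). The fits used edgeR 4.0.16 in R 4.3.3 on all genes that passed filterByExpr with a minimum count of 10, with TMM scaling, the quasi-likelihood test and Benjamini-Hochberg adjustment over all genes tested. The standard error is the log2 change divided by the root of F. Levels are CPM after TMM scaling over the whole experiment, and RPKM uses merged GENCODE M21 exons. DESeq2 1.42.0 was an alternative. In simulated counts with 1 common spread for all genes, the fits recovered 78 to 97% of 2-fold changes and 62 to 80% of 1.5-fold changes. The changed genes were drawn from all levels, so these shares may not hold for members with few reads. Totals of 6.89 to 24.94 M counts put 1 CPM at 7 to 25 reads, so most members carry large counting error, and p-values measure only the spread between these samples.

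The members and gene lists were chosen with earlier results of these data known. By a fixed rule each member is named, with its role where that is known. Values per library are given for Foxj1, for members past the test in a mutant comparison, for the 3 with the smallest p in each mutant comparison, and for the 3 largest tissue differences each way. The tissue comparison of Mir7DKO and the interaction used experiment 2 alone.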

Additional observations from a re-analysis of the deposited data

Results flagged for a closer look

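The Mir7DKO change of 2 members differed between cerebellum and cortex, by 3.17 on the log2 scale for Ccdc135 and by 2.20 for Efcab1, where 0.155% of all genes tested were called. Neither passed with the choroid plexus covariate. Without 1 library, Ccdc135 did not pass in 11 and Efcab1 in 9 of 14 fits.

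Of 96 groups of 4 libraries examined, 12 held a library far from its group. Chance would flag about 1 in 20 independent groups of normally distributed values. These groups share libraries and many hold few reads, so that rate may not hold here. In experiment 1B, wild-type replicate 2 was highest for Ccdc135 (3.74 CPM, next 0.499 CPM), Efcab1 (1.495 CPM, next 0.304 CPM) and Foxj1 (6.09 CPM, next 4.86 CPM). CyrKO replicate 1 was highest for Dnah6 (26.3 CPM, next 21.7 CPM), and CyrKO replicate 2 was lowest for Dnah9 (0.512 CPM, next 1.59 CPM). Mir7DKO replicate 1 was highest for Gm872 (4.33 CPM, next 2.09 CPM) and for the summed members (239 CPM, next 186 CPM), and Mir7DKO replicate 4 was highest for 1700009P17Rik (1.53 CPM, next 1.06 CPM). In experiment 1A, CyrMut replicate 2 was lowest for Spata18 (1.04 CPM, next 1.65 CPM). In wild-type cortex, replicate 4 was highest for 1700009P17Rik (2.07 CPM, next 1.06 CPM), replicate 3 was highest for Efcab1 (11.1 CPM, next 8.26 CPM), and replicate 2 was lowest for Dnah6 (2.38 CPM, next 4.25 CPM).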

How the results depend on the processing

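With no low-count filter 7 members passed in CyrMut against 0 with it, 7 against 1 in Mir7DKO cerebellum of experiment 2, and 5 against 2 in the interaction. A minimum count of 50 gave 0 members in Mir7DKO cerebellum of experiment 2, 8 in the wild-type tissue comparison against 20, 10 in the Mir7DKO tissue comparison against 23, and 1 in the interaction, with fewer genes tested. With the choroid plexus covariate, and without the libraries high in choroid plexus markers, a setting chosen after the data had been seen, 0 members passed in Mir7DKO cerebellum of experiment 2 and 0 in the interaction. Leaving out 1 library at a time gave 0 to 3 members in each of these. The other totals of members called stayed within 1.5 times, although in the Mir7DKO tissue comparison, without the libraries high in choroid plexus markers, 6 members were higher against 10. Leaving out 1 library at a time gave 3 to 70 genes in Mir7DKO cerebellum of experiment 2 against 28, 1 to 48 in the interaction against 23, and 17 in CyrMut without CyrMut replicate 2 against 1. Over all genes, no filter gave 43 calls in CyrMut against 1, 184 in Mir7DKO cerebellum of experiment 2 against 28, and 48 in Mir7DKO cortex against 6, and DESeq2 gave 4, 23 and 6. No filter gave 10 calls in CyrKO against 3 and 74 in the interaction against 23. Settings gave 0 to 5 calls against 1 in Mir7DKO cerebellum of experiment 1B. In Mir7DKO cerebellum of experiment 2 a minimum count of 50 gave 6 calls, and leaving out the libraries high in choroid plexus markers gave 110. In the interaction both choroid plexus settings gave 1 call, a minimum count of 50 gave 14 and DESeq2 gave 12, and in cortex leaving out those libraries gave 3.

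Replicate numbers were not used as pairs in the main fits. In no comparison did every same-numbered pair correlate above 0.1 (lowest -0.232, highest 0.337). All 3 Mir7DKO libraries, however, correlated best with their own number in cortex (0.0516 to 0.11) and in the Mir7DKO tissue comparison (0.0419 to 0.0938). This check cannot show whether a mouse gave both tissues, and the main fits treat the libraries as independent. With the replicate block 1 member passed in the interaction against 2, and 19 genes were called in Mir7DKO cortex against 6. The block changed no other count of members by over 1.5 times.

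The change of Foxj1, never past the test in a mutant comparison, turned sign in Mir7DKO cortex with DESeq2 (0.0082), with the choroid plexus covariate (0.27), without the libraries high in choroid plexus markers (0.28) and among fits without 1 library (-0.16 to 0.21). It turned in the interaction with that covariate (-0.094) and without those libraries (-0.13), and in the Mir7DKO tissue comparison among fits without 1 library (-0.196 to 0.0519). The causes were not tested. At about 1 CPM a member holds 7 to 25 reads a library, which limits what these libraries can show.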
